A study of Homo sapiens with 12 samples.

Results

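Transcript levels at 10 mM glucose were compared with those at 1 mM glucose supplemented with acetate, to describe which genes kept a different level when acetate, in place of more glucose, was given. The comparison used the 8 libraries whose titles name these media, 4 with 10 mM glucose and 4 with 1 mM glucose and 5 mM acetate, of 12 in the series. The remaining 4 had 1 mM glucose alone and are used here only to show where the acetate level lay. Every library was made from LN229 cells, a human glioblastoma line long in culture, so 1 line stands for the tumour. Wells at 80% confluence were kept for 24 hours in RPMI with 10% dialyzed fetal bovine serum, a serum freed of small molecules, and the labels name no drug or gene alteration in any group. The labels number the samples of a medium as replicates and do not say that they were separate cultures, so p-values reflect sample-to-sample spread that may be only technical. Acetate at 10 mM glucose was not analysed here.

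As background, glucose feeds glycolysis, the hexosamine pathway that makes the sugar units of N-linked glycans, and the acetyl-CoA pool from which fatty acids, sterols and histone acetyl groups are made. Acetate enters that last pool through the acetyl-CoA synthetases ACSS1 in mitochondria and ACSS2 in the cytosol and nucleus, and cannot supply sugar units to glycoproteins. When glycosylation or folding fails in the endoplasmic reticulum (ER), the unfolded protein response raises chaperones, degradation factors and, through the kinase PERK and the factors ATF4 and CHOP, amino acid enzymes and transporters.

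Of 22257 genes in the deposited tables, 14416 had enough counts to be tested, with library totals of 24412954 to 27183718 counts. Levels are given as CPM, counts per 1000000 of the library total scaled by the TMM method. They are not divided by transcript length, so they compare libraries and not genes. Fold changes are log2 values of 10 mM minus acetate, each with its standard error (SE), and a gene is called when its Benjamini-Hochberg adjusted p in edgeR's quasi-likelihood test is under 0.05. Acetate replicate 1 and replicate 3 at 1 mM glucose stood apart in a trend with transcript length. Across genes, Spearman's rho between length and how far a library lay above its mean level was −0.48 and −0.49 there, and −0.18 to 0.23 in the 10 others. The glial marker VIM, vimentin, reached 3728, 3685, 3852 and 3807 CPM at 10 mM and 4879, 4468, 4305 and 4241 CPM with acetate. GFAP, the astrocyte filament protein, was low in both groups, with 0.848 ± 0.0925 CPM at 10 mM and 1.14 ± 0.278 CPM with acetate (SD, n = 4). Of the 38 astrocyte, neuron, oligodendrocyte, blood and endothelial markers, 18 had too few counts to be tested, with at most 14 counts in any of the 8 libraries, and STMN2, HBB and HBA1 were at 0 in all of them.

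A total of 9049 genes were called (62.8% of those tested), 4471 of them higher at 10 mM glucose (31.0%) and 4578 lower (31.8%). The groups did not overlap for 8787 genes (61.0%). Most changes were small: 3672 called genes differed by at least 1.5-fold and 1468 by at least 2-fold, 674 of these higher and 794 lower at 10 mM. Without acetate replicate 1 the count was 8900, and without both libraries that stood apart it was 9945. Scaling by library totals in place of TMM moved the median of all genes by 0.10 and turned the split into 5563 higher and 3586 lower, or 60.8% higher against 49.4% with TMM. Of the genes named in the text, ACAT1, CDK4, LDHB, MSMO1, ORC2, RFC1, SMOX and VIM were then no longer called lower. Removing the trend of each library in transcript length and GC content moved some called values by over 1.5 times without ending the call: FASN to 0.39, HAT1 to 0.55, ULK1 to 0.31, HSD17B7 to −0.21 and LDHB to −0.11. Calls that ended are given beside the gene. In a comparison that shares the acetate libraries, acetate against 1 mM glucose alone, 1980 genes were called (13.7%). Counts of genes called for acetate against 1 mM, given below, stand beside this share. The median size of the log2 fold change was 0.33 for 10 mM against acetate and 0.12 for acetate against 1 mM.

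**Figure D1:**
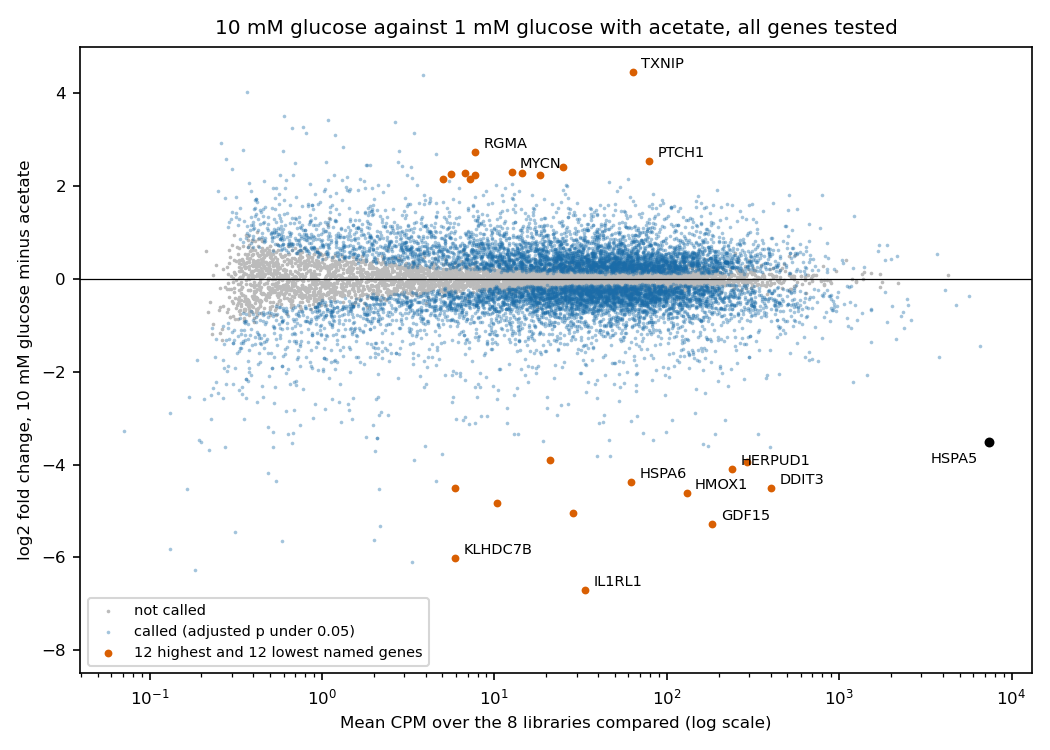
Each point is 1 of the 14416 genes tested, with the mean CPM over the 8 libraries on a log scale (x axis) and the log2 fold change of 10 mM glucose minus acetate (y axis). Blue points are called, grey points are not, orange points are the 12 genes highest and the 12 lowest at 10 mM among those averaging at least 5 CPM, and the black point is HSPA5. The lower group reaches −6.70 (IL1RL1) and the higher group 4.46 (TXNIP).

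At the upper end stood TXNIP, an arrestin-family protein that restrains glucose uptake and whose gene is switched on by glucose-derived sugar phosphates. The 4 libraries at 10 mM had 117, 119, 122 and 127 CPM and those with acetate 4.92, 5.69, 5.94 and 5.48 CPM, a 21.98-fold difference (4.46 ± 0.08, adjusted p = 8.6e-15). All 10 mM libraries lay above all acetate libraries, which lay at or slightly below 1 mM glucose alone at 5.94, 6.86, 6.28 and 7.42 CPM. The next 11 genes were 4.46 to 6.63 times higher at 10 mM. Among them were the Hedgehog receptor PTCH1 (2.55 ± 0.13), the repulsive guidance molecule RGMA (2.73 ± 0.10), the basic helix-loop-helix factor ATOH8 (2.41 ± 0.12), the MYC-family factor MYCN (2.31 ± 0.12) and the SOX-family factor SOX8 (2.25 ± 0.12). The others were the zinc transporter SLC30A2, the protocadherin PCDH7, the Toll-like receptor accessory protein TRIL, the phosphoinositide 3-kinase regulatory subunit PIK3R3, the membrane protein TMEM100 and the dynein heavy chain DNAH9. Of these 12 genes, acetate raised 3 above 1 mM glucose alone, ATOH8 (0.73 ± 0.14), TRIL (0.62 ± 0.17) and PTCH1 (0.47 ± 0.13), and lowered TXNIP (−0.27 ± 0.08).

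At the lower end stood IL1RL1, the gene of the interleukin-33 receptor, counted by 1 transcript that does not tell its forms apart. It had 68.3, 74.6, 70.9 and 53.8 CPM with acetate and 0.464, 0.726, 0.693 and 0.655 CPM at 10 mM, a 104-fold difference (−6.70 ± 0.19, adjusted p = 1.22e-12). The kelch protein KLHDC7B followed (−6.02 ± 0.24), and then the stress cytokine GDF15 (−5.28 ± 0.14). The gene of the epithelial alarm cytokine TSLP was 22.9-fold lower and HMOX1, the heme-degrading enzyme, 24.5-fold lower at 10 mM. The transcript counted for TSLP is a non-coding record, so its value need not stand for the coding transcripts. The ER stress genes DDIT3 (CHOP), HERPUD1 and TRIB3 were also among these 12, with C9orf150, BEX2, the small proline-rich protein SPRR2D and the heat shock protein HSPA6. The last pair have near-identical relatives in the genome, so their counts are uncertain. Acetate by itself had lowered 8 of the 12 below the 1 mM level, least in C9orf150 (−0.21 ± 0.06) and most in HSPA6 (−1.75 ± 0.20), while GDF15, TSLP, DDIT3 and HERPUD1 were not called for acetate against 1 mM.

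ER chaperones were far lower at 10 mM glucose than with acetate. All 24 tested chaperones and folding enzymes of the ER lumen were lower at 10 mM, where 31.8% of all genes were, and 22 of them were called and at least 1.5-fold apart. Their median log2 fold change was −1.55, against 0.00 over all genes. HSPA5 (BiP), the main ER chaperone, had 13792, 14123, 13679 and 12705 CPM in the acetate libraries and 1186, 1188, 1166 and 1192 CPM at 10 mM. The acetate libraries overlapped those of 1 mM glucose alone, 13549, 12831, 12463 and 13325 CPM, and lay far above all 10 mM libraries. The difference to 10 mM was 11.5-fold (−3.52 ± 0.06, adjusted p = 8.14e-15), and that between acetate and 1 mM was 0.06 ± 0.05 (95% interval −0.05 to 0.16). The other 2 members with the smallest p were DNAJB9, a co-chaperone (−3.32 ± 0.07), and PDIA4, a disulfide isomerase (−2.08 ± 0.06). Between acetate and 1 mM, 3 of the 24 members were called, all lower, where 13.7% of all genes were called, and the median was −0.11. The summed level of the list ran from 36713 to 39978 CPM with acetate and from 11385 to 11593 CPM at 10 mM.

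The promoters of HSPA5 and HSP90B1, the ER paralogue of HSP90 (−1.68 ± 0.06), are shown because both hold the ER stress response element, the letters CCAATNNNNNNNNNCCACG, that the factors ATF6 and NF-Y are known to bind. Windows run from 250 bases before to 50 bases after the start of the first transcript listed for a gene in RefSeq (GRCh38.p14), and capitals mark the element on either strand. HSPA5 lies at chr9:125241294-125241593 on the minus strand and HSP90B1 at chr12:103930160-103930459 on the plus strand.
HSPA5: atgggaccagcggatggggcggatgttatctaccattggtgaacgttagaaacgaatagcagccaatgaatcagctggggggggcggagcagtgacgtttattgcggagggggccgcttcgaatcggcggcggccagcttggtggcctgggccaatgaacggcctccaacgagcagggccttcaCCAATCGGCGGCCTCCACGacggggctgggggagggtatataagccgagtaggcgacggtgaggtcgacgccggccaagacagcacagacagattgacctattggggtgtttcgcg
HSP90B1: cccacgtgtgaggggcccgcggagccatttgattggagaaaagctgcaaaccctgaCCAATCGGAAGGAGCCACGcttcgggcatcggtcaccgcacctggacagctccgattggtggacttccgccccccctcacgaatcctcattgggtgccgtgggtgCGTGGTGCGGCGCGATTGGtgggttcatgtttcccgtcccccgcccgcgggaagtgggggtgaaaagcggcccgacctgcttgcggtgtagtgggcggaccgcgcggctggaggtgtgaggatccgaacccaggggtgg
The HSPA5 element began 66 bases before the start, and HSP90B1 had 2, at 194 and 89 bases before it, the second on the opposite strand. Promoters were found for 22 of the 24 ER lumen genes and 6 held the element, those of HSPA5, HSP90B1, CALR, CANX, CRELD2 and ERO1LB, against 22 of 27305 genes in the whole table (0.0806%). These are letter matches and not measured binding sites. The log2 fold changes of these 6 genes ran from −3.52 for HSPA5 to −0.79 for CANX, and CRELD2 was −1.96 ± 0.09 and CALR −1.29 ± 0.06.

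Genes of ER-associated degradation, which exports misfolded proteins to the proteasome, were mostly lower at 10 mM as well. Of 23 tested, 18 were lower at 10 mM, 1 was higher and 4 were not called, with a median of −0.90. HERPUD1, a scaffold of the degradation complex, had 476, 465, 431 and 433 CPM with acetate and 25.5, 25.7, 26.6 and 28.2 CPM at 10 mM. The groups were far apart (−4.09 ± 0.07, adjusted p = 9.66e-15), and acetate against 1 mM gave 0.00 ± 0.06 (95% interval −0.13 to 0.14). The channel component DERL3 (−3.13 ± 0.11) and the ubiquitin ligase SYVN1 (−1.91 ± 0.05) were the next by p. VCP, the segregase that pulls substrates out of the membrane, was the member that went the other way (0.13 ± 0.05), and acetate had lowered it below 1 mM (−0.21 ± 0.05). Its call was lost without 10 mM replicate 1 (adjusted p = 0.0527) and with the length and GC trend removed (0.04, adjusted p = 0.213, and 0.273 with the replicate block). Among 13 sensors and factors of the unfolded protein response, 9 were lower, 1 was higher and 3 were not called, with a median of −0.58. XBP1, the factor spliced by the sensor IRE1, was 4.92-fold lower (−2.30 ± 0.06), EIF2AK3 (PERK) was −1.18 ± 0.09 and ATF6 was −0.69 ± 0.06. The member higher at 10 mM was ATF6B (0.16 ± 0.06), the ATF6 paralogue, whose call was lost without acetate replicate 1 or 3 or 10 mM replicate 1 or 3 (adjusted p = 0.0527, 0.0683, 0.0812 and 0.111). Total XBP1 counts do not separate its spliced and unspliced forms.

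Genes that build and transfer N-glycans were either lower at 10 mM or not called. Of 31 tested, 18 were lower at 10 mM, none was higher and 13 were not called, with a median of −0.27. The 18 called of 31 stand beside 62.8% of all genes, and the 17 without overlap beside 61.0%. Over all genes 31.8% were called lower. The members with the smallest p belonged to the oligosaccharyltransferase, the complex that moves the glycan to the protein: RPN1 (−0.73 ± 0.05), MAGT1 (−1.02 ± 0.06) and OSTC (−1.05 ± 0.07). For 10 members the 95% interval lay within 0.32 of 0 on the log2 scale, here called narrow. The hexosamine list had 6 of 9 members lower, 2 higher and 1 not called. GFPT1, the rate-limiting enzyme of the pathway, had 308, 353, 342 and 338 CPM with acetate and 81.05, 83.3, 78.9 and 84.6 CPM at 10 mM (−2.03 ± 0.08, adjusted p = 2.18e-11). UAP1, which makes UDP-N-acetylglucosamine, was −1.67 ± 0.05, and PGM3, the mutase before it, −0.94 ± 0.07. GFPT2, the second amidotransferase, went the other way (0.24 ± 0.07): acetate had lowered it from 41.2 ± 3.22 to 24.9 ± 2.26 CPM, below the 29.5 ± 0.738 CPM at 10 mM (SD, n = 4). MGEA5, the enzyme that removes O-GlcNAc, was also higher at 10 mM (0.62 ± 0.08), and OGT, which adds it, was lower (−0.64 ± 0.08).

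The ATF4 and CHOP branch had the lowest median of the 36 lists, −2.44, with 17 of 18 members lower at 10 mM and 1 higher. DDIT3, the gene of CHOP, had 918, 773, 715 and 689 CPM with acetate against 34.8, 32.4, 34.7 and 34.2 CPM at 10 mM (−4.51 ± 0.10, adjusted p = 1.78e-13). Every acetate library lay above every 10 mM library, and acetate and 1 mM differed by 0.02 ± 0.09 (95% interval −0.17 to 0.21). ATF4 itself was 2.98-fold lower (−1.57 ± 0.08). The members with the smallest p were the secreted stanniocalcin STC2 (−3.61 ± 0.06), the stress sestrin SESN2 (−3.05 ± 0.05) and PPP1R15A (GADD34), the phosphatase subunit that reverses the PERK signal (−3.34 ± 0.06). Acetate had already lowered 11 of the 18 below 1 mM, among them SESN2 (−0.56 ± 0.05) and PPP1R15A (−0.47 ± 0.06), and had raised none. Over all genes 13.7% were called in that comparison. ATF5, another ATF4-family factor, was the member higher at 10 mM (0.19 ± 0.05), and acetate had lowered it too (−0.31 ± 0.05).

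Amino acid enzymes, known targets of ATF4, were lower at 10 mM in 16 of 22 cases, with 3 higher and 3 not called and a median of −1.18. ASNS, asparagine synthetase, had 651, 643, 576 and 580.0 CPM with acetate and 136, 139, 136 and 146 CPM at 10 mM. The difference was 4.39-fold (−2.14 ± 0.06, adjusted p = 6.23e-13), and acetate against 1 mM gave −0.06 ± 0.05 (95% interval −0.17 to 0.06). MTHFD2, a mitochondrial folate enzyme (−2.07 ± 0.05), and CTH, which makes cysteine from cystathionine (−2.78 ± 0.08), were the other members with the smallest p. SHMT1, the cytosolic serine hydroxymethyltransferase, went the other way (0.74 ± 0.08), as did glutamine synthetase GLUL (0.18 ± 0.05) and the folate enzyme MTHFD1 (0.14 ± 0.05, adjusted p = 0.0512 without 10 mM replicate 4). With the length and GC trend removed GLUL was no longer called (0.11, adjusted p = 0.106, and 0.102 with the replicate block). Of 17 amino acid transporters, 10 were lower, 4 were higher and 3 were not called. The glycine transporter SLC6A9 (−1.75 ± 0.07) and SLC3A2, the heavy chain of several exchangers (−1.74 ± 0.07), fell at 10 mM, while SLC1A3, a glutamate transporter of astrocytes, rose from 4.73, 4.88, 4.24 and 4.80 CPM to 12.8, 12.4, 12.3 and 11.4 CPM (1.39 ± 0.07).

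Of 20 cytosolic tRNA synthetases, 16 were lower, none was higher and 4 were not called, with a median of −0.64. The lowest were GARS (−1.72 ± 0.04), AARS (−1.68 ± 0.05) and WARS (−1.60 ± 0.05), for glycine, alanine and tryptophan. AARS had 903, 1020.0, 978 and 961 CPM with acetate, 1014, 968, 922 and 946 CPM at 1 mM alone and 316, 301, 296 and 294 CPM at 10 mM. For 6 synthetases, including RARS for arginine (0.04 ± 0.05), the 95% interval was narrow in the same sense. RARS was called higher at 10 mM with library totals (0.14, adjusted p = 0.0422) and with the length and GC trend removed (0.18, adjusted p = 0.00027, and 0.00145 with the replicate number as a block). Promoters were found for 16 of the 20 synthetases, and 6 held on either strand the composite C/EBP-ATF letters TGATGNAA, which ATF4 with a C/EBP partner is known to read, against 3.67% of all 27305 promoters.

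**Figure D2:**
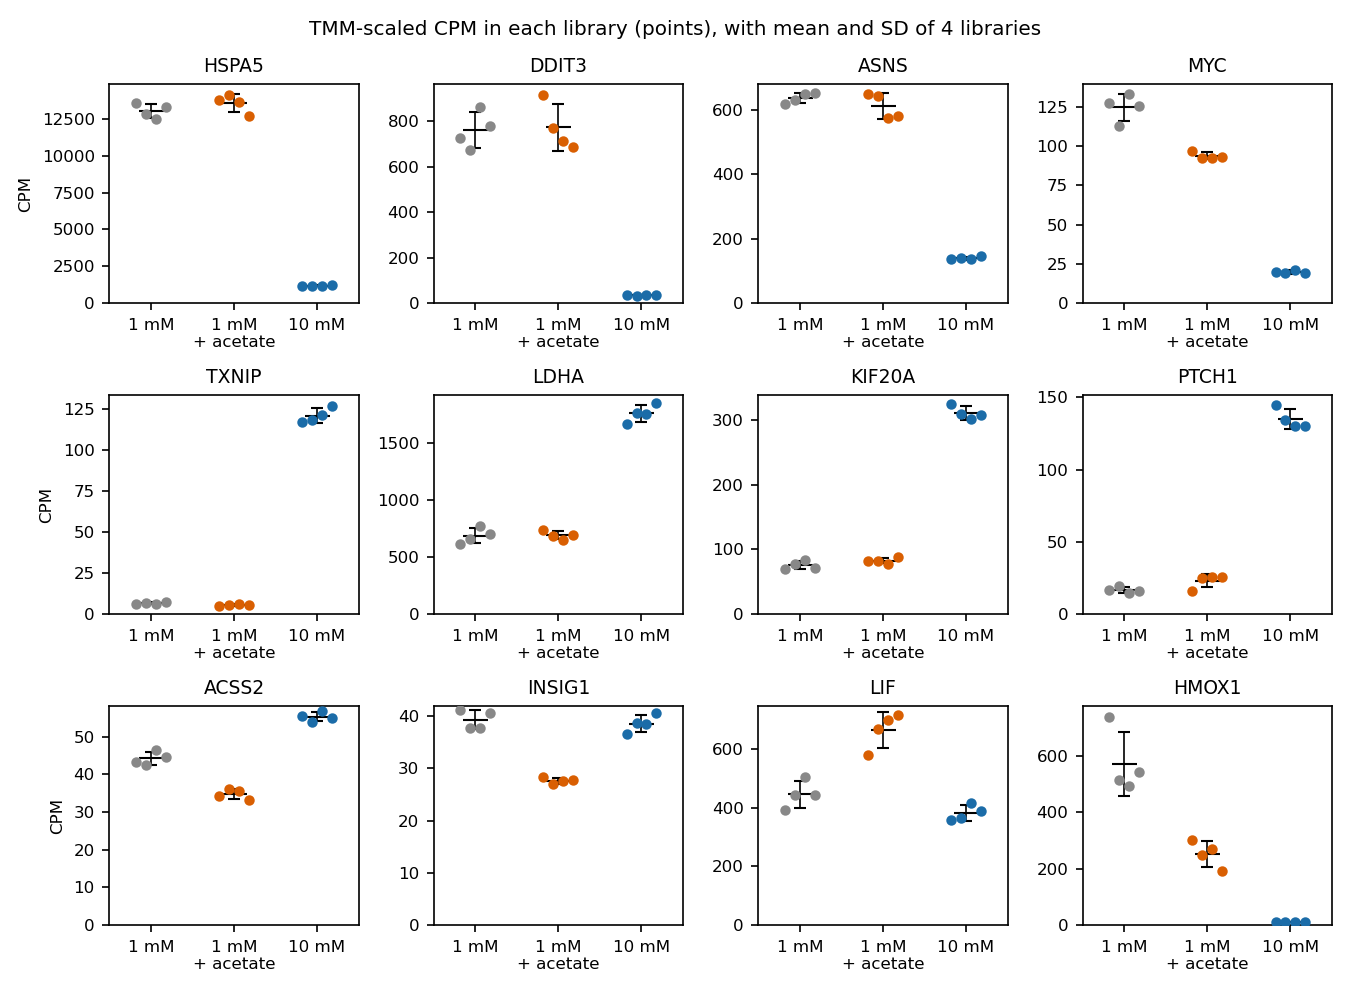
TMM-scaled CPM of 12 genes in each library (points) of the 3 media on the x axis, with the mean and SD of 4 libraries (bars). In the upper row (HSPA5, DDIT3, ASNS and MYC) and for HMOX1 the 10 mM libraries lie at the bottom, for TXNIP, LDHA, KIF20A and PTCH1 they lie at the top, and for ACSS2, INSIG1 and LIF the acetate libraries lie farther from 10 mM than 1 mM glucose does.

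The list for the glucose-sensing factors MondoA and ChREBP was short, and TXNIP far exceeded the others. Besides target genes it holds the genes of MondoA itself and of its partner MLX. Of 9 tested, 5 were higher at 10 mM, 2 were lower and 2 were not called, with a median of 0.40. The gene of MondoA was among the 5 higher, and its value is that median. ARRDC4, the closest relative of TXNIP in this list, had 1.63, 2.29, 1.93 and 1.81 CPM with acetate and 6.23, 5.63, 5.72 and 5.89 CPM at 10 mM (1.61 ± 0.11, adjusted p = 1.12e-08). PFKFB4, which sets the level of a glycolytic activator, was 0.63 ± 0.06, and acetate had moved it part of the way (0.36 ± 0.06). MLX, the partner of MondoA (−0.43 ± 0.06), and the matrix protein THBS1 (−0.74 ± 0.09) were lower. No promoter of the 8 matched genes held a pair of CACGTG letters 5 bases apart, and 2 of all 27305 did. Only this exact spelling was searched. A match that rare was unlikely in 8 promoters, so its absence does not show whether these genes hold a site for the factors.

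Glycolysis genes moved in both directions. Of 23 tested, 12 were higher at 10 mM, 8 were lower and 3 were not called, with a median of 0.22. LDHA, which turns pyruvate into lactate, had 734, 683, 653 and 695 CPM with acetate and 1668, 1762, 1750.3 and 1853 CPM at 10 mM. It was 2.54-fold higher (1.35 ± 0.07, adjusted p = 4.3e-10), with acetate and 1 mM 0.01 ± 0.07 apart (95% interval −0.13 to 0.16). PGAM1, phosphoglycerate mutase, was 0.80 ± 0.08. Members that fell at 10 mM included 2 glucose importers and a hexokinase: SLC2A3 (GLUT3) had 37.2, 37.6, 36.6 and 33.4 CPM with acetate and 18.04, 18.04, 17.02 and 20.01 CPM at 10 mM (−0.99 ± 0.08), SLC2A1 (GLUT1) was −0.57 ± 0.06 and HK2 −0.84 ± 0.08. The other hexokinase of the list, HK1, was higher (0.22 ± 0.05), and the importers SLC2A12 (−0.13 ± 0.17) and SLC2A6 (0.09 ± 0.17) were not called. Acetate had lowered SLC2A3, SLC2A1 and HK2 from the 1 mM level, with log2 fold changes of −0.65 ± 0.08 for SLC2A3, −0.36 ± 0.06 for SLC2A1 and −0.32 ± 0.08 for HK2. The neuronal enolase ENO2 (−0.71 ± 0.07), the phosphofructokinases PFKP (−0.43 ± 0.06) and PFKM (−0.36 ± 0.05), the lactate carrier SLC16A1 (−0.33 ± 0.06) and LDHB (−0.26 ± 0.06) were the other members that fell.

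Among genes that make and use acetyl-CoA, those called were mostly higher at 10 mM glucose than with acetate. Of 24 tested, 9 were higher at 10 mM, 3 were lower and 12 were not called. The 12 called of 24 stand beside 62.8% of all genes, and the 14 without overlap beside 61.0%. ACSS2, which activates acetate, had 43.4, 42.6, 46.6 and 44.7 CPM at 1 mM, 34.2, 36.1, 35.6 and 33.2 CPM with acetate and 55.5, 53.8, 56.9 and 55.1 CPM at 10 mM. All acetate libraries lay below all libraries of both other media, so acetate moved this gene away from its 10 mM level (−0.35 ± 0.05 against 1 mM, adjusted p = 0.000505, and 0.67 ± 0.05 for 10 mM against acetate, adjusted p = 3.1e-08). The mitochondrial ACSS1 was also higher at 10 mM (0.65 ± 0.05) but was not called for acetate against 1 mM (−0.09 ± 0.05). ACLY, which makes acetyl-CoA from citrate, was 0.37 ± 0.06. PDP1, the phosphatase that activates pyruvate dehydrogenase, had 297, 290.3, 292 and 299 CPM with acetate and 120.4, 117, 119 and 121 CPM at 10 mM (−1.30 ± 0.08), and the ketone enzyme ACAT1 was slightly lower (−0.27 ± 0.09). With the length and GC trend removed ACAT1 was no longer called (−0.11, adjusted p = 0.152, and 0.203 with the replicate block). For 8 members the 95% interval was narrow, among them PDHX, a subunit of pyruvate dehydrogenase (−0.03 ± 0.05, 95% interval −0.13 to 0.07).

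Of 17 fatty acid genes tested, 9 were higher at 10 mM, 3 were lower and 5 were not called, with a median of 0.17. The 12 called of 17 stand beside 62.8% of all genes, and the 9 higher beside 31.0%. For 5 members the interval was narrow in the sense given above. The elongase ELOVL6 (0.85 ± 0.05) and the desaturase FADS2 (0.80 ± 0.08) led, and neither was called for acetate against 1 mM. FASN, fatty acid synthase, had 336, 511, 582 and 592 CPM with acetate and 765, 809, 801 and 715 CPM at 10 mM (0.61 ± 0.13, adjusted p = 0.000961). Acetate replicate 1 was the lowest of its group, and without it the fold change was 0.46. SCD, the main desaturase, was 0.30 ± 0.07. The elongase ELOVL7 (−1.21 ± 0.10), malic enzyme ME1 (−0.64 ± 0.07) and the acyl-CoA synthetase ACSL1 (−0.36 ± 0.05) were lower at 10 mM.

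Sterol genes had 12 of 23 members higher at 10 mM, 6 lower and 5 not called, with a median of 0.26. HMGCS1, which makes the HMG-CoA that enters the pathway, was 0.52 ± 0.07. INSIG1, which retains the sterol sensor in the ER, had 41.2, 37.7, 37.8 and 40.6 CPM at 1 mM, 28.4, 26.9, 27.5 and 27.7 CPM with acetate and 36.6, 38.6, 38.5 and 40.7 CPM at 10 mM. Its acetate libraries lay below all others, with −0.51 ± 0.05 for acetate against 1 mM (adjusted p = 5.41e-05) and 0.48 ± 0.05 for 10 mM against acetate (adjusted p = 2.09e-06). Acetate against 1 mM called 4 of the 23 sterol genes, all lower, beside 13.7% of all genes. STARD4, a cytosolic sterol carrier, was the lowest at 10 mM (−1.01 ± 0.13), followed by MVD (−0.41 ± 0.09) and HSD17B7 (−0.40 ± 0.08).

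The TCA cycle and respiratory chain list leaned lower at 10 mM with mostly small differences, and its median was −0.11. Of 29 members, 3 were higher, 13 were lower and 13 were not called. Over all genes 31.0% were higher and 31.8% lower. The 16 called stand beside 62.8% of all genes, and for 15 members the 95% interval was narrow. The exceptions in size were PPARGC1A (PGC-1α), the coactivator of mitochondrial genes, at 9.05, 10.03, 10.6 and 9.56 CPM with acetate and 1.78, 2.14, 1.49 and 1.35 CPM at 10 mM (−2.53 ± 0.19), and IDH1, the cytosolic isocitrate dehydrogenase (−1.25 ± 0.07). SUCLG2, a succinyl-CoA ligase subunit, was −0.59 ± 0.06. No member of the list was called for acetate against 1 mM, where 13.7% of all genes were. Among 33 histone acetyltransferases, deacetylases, sirtuins and bromodomain readers, 8 were higher, 10 were lower and 15 were not called, with a median of 0.01. The 18 called of 33 stand beside 62.8% of all genes. HDAC9 (−1.74 ± 0.08) and HDAC4 (1.24 ± 0.11), deacetylases of the same class, lay at opposite ends, and HAT1, which acetylates new histones, was 0.33 ± 0.06.

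NRF2 antioxidant genes were lowered by acetate in many cases, and many were lower still at 10 mM. Of 24 tested, 16 were lower at 10 mM than with acetate, 4 were higher and 4 were not called. For acetate against 1 mM, 15 of the same 24 were lower and none was higher, where 13.7% of all genes were called. HMOX1 had 737, 514, 491 and 541 CPM at 1 mM, 299.6, 248, 268 and 189.9 CPM with acetate and 9.29, 10.7, 11.3 and 9.68 CPM at 10 mM. The 3 groups did not overlap: −1.18 ± 0.14 separated acetate from 1 mM (adjusted p = 9.8e-05) and −4.61 ± 0.16 separated 10 mM from acetate (adjusted p = 1.2e-11). SRXN1, sulfiredoxin, gave −0.68 ± 0.05 and −1.15 ± 0.05 for the same steps, and OSGIN1, a growth inhibitor induced by oxidants, −1.05 ± 0.08 and −1.52 ± 0.09. NQO1, a quinone reductase, had instead 572 ± 34.7 CPM at 1 mM, 474 ± 42.2 CPM with acetate and 705 ± 10.96 CPM at 10 mM (SD, n = 4), so acetate moved it away from the 10 mM level. The reductase AKR1C1 (0.73 ± 0.08), peroxiredoxin PRDX1 (0.26 ± 0.07) and the NRF2 repressor KEAP1 (0.22 ± 0.07) were higher at 10 mM as well, each after a fall with acetate. The KEAP1 call was lost without 10 mM replicate 3 (adjusted p = 0.0552).

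Cytosolic heat shock genes had moved with acetate, and at 10 mM they lay on both sides of it. Of 26 tested, 6 were higher at 10 mM than with acetate, 12 were lower and 8 were not called. The 18 called of 26 stand beside 62.8% of all genes, and the median was −0.04 (0.07 with library totals). Against 1 mM, where 13.7% of all genes were called, acetate had lowered 18 and raised 1, with a median of −0.44. HSP90AB1, a constitutive HSP90, had 1791, 1637, 1674 and 1718 CPM at 1 mM, 1380.5, 1397, 1358 and 1334 CPM with acetate and 1395, 1336, 1373 and 1385 CPM at 10 mM. The last pair overlapped, with a difference of 0.00 ± 0.05 (95% interval −0.09 to 0.10), while acetate against 1 mM was −0.32 ± 0.05. With scaling by library totals the first difference was 0.11 (adjusted p = 0.0495). The inducible HSP70 genes stayed apart: HSPA1A had 781 ± 197 CPM at 1 mM, 299 ± 53.2 CPM with acetate and 25.6 ± 1.44 CPM at 10 mM (SD, n = 4). Reads of HSPA1A and its near-identical copy HSPA1B (−3.60 ± 0.16) cannot be told apart with certainty. HSPA8, the constitutive HSP70, fell with acetate (−0.51 ± 0.06) and was higher again at 10 mM (0.44 ± 0.06), as was its co-chaperone DNAJA1 (−0.65 ± 0.07 and 0.65 ± 0.07). The chosen heat shock element letters, GAANNTTCNNGAA, were in 4 of the 23 promoters found (CHORDC1, DNAJA1, HSPA6 and HSPA8), against 0.487% of all 27305. Metallothioneins, which bind zinc and have near-identical copies, had 7 members tested, 1 of them higher, 3 lower and 3 not called.

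Immediate early genes, the first targets of growth factor signalling, were partly lowered by acetate. Of 25, 16 were lower at 10 mM than with acetate, 1 was higher (EGR3, 0.45 ± 0.05) and 8 were not called. For acetate against 1 mM, 17 were lower and 1 was higher, where 13.7% of all genes were called. FOS had 46.6, 38.2, 33.4 and 39.7 CPM at 1 mM, 13.7, 14.2, 15.2 and 12.9 CPM with acetate and 8.94, 10.2, 10.3 and 9.10 CPM at 10 mM. Acetate thus took it most of the way (−1.50 ± 0.09), with −0.54 ± 0.10 remaining (adjusted p = 0.000288). FOSB (−2.95 ± 0.11), the phosphatase DUSP5 (−2.27 ± 0.07) and the factor KLF4 (−1.86 ± 0.07) lay farther from their 10 mM level. JUN, EGR2 and the survival factor MCL1 differed from 10 mM by −0.04 ± 0.06, 0.00 ± 0.10 and 0.00 ± 0.06, and acetate had lowered each of them from 1 mM (−0.39 ± 0.06, −0.33 ± 0.10 and −0.21 ± 0.06).

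Inflammatory cytokines and their feedback genes were lower at 10 mM in 18 of 21 cases and higher in none, with 3 not called and a median of −1.08. After IL1RL1, the smallest p belonged to IL1A (−3.50 ± 0.09) and IL8, a neutrophil chemokine (−2.88 ± 0.11). Acetate moved part of this list away from 10 mM: 6 members were higher with acetate than at 1 mM and 4 were lower. Over all genes 13.7% were called in that comparison. IL8 had 177, 179, 200.2 and 215 CPM at 1 mM, 262, 268, 266 and 225 CPM with acetate and 28.3, 31.8, 36.1 and 42.6 CPM at 10 mM. LIF, a cytokine of the interleukin-6 family, had 393, 442, 505 and 444 CPM at 1 mM, 579.5, 671, 700.2 and 716 CPM with acetate and 357, 365, 418 and 391 CPM at 10 mM. Its acetate libraries lay above all others (0.58 ± 0.08 against 1 mM, adjusted p = 0.0005, and −0.80 ± 0.08 for 10 mM against acetate, adjusted p = 1.07e-06). IL1RL1 itself was lower with acetate than at 1 mM (−0.62 ± 0.12).

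MYC and MYCN ran in opposite directions. MYC had 97.05, 92.4, 92.5 and 93.3 CPM with acetate and 19.7, 18.98, 21.3 and 19.1 CPM at 10 mM, 4.74-fold lower (−2.25 ± 0.06, adjusted p = 9.43e-13), after a first fall with acetate (−0.41 ± 0.06). MYCN had 3.84, 5.23, 3.79 and 4.01 CPM with acetate and 21.4, 21.1, 21.3 and 20.05 CPM at 10 mM (2.31 ± 0.12, adjusted p = 5.22e-10). Neither pair of groups overlapped. In the list of MYC network and ribosome biogenesis genes, 21 of 30 were lower at 10 mM, 4 were higher and 5 were not called. The MYC antagonists MXD1 (−3.48 ± 0.11) and MXI1 (−1.12 ± 0.05) fell with MYC, while MXD4 (0.90 ± 0.12) and UBTF, a factor of ribosomal RNA transcription (0.76 ± 0.05), rose with MYCN. The fourth member that rose, MXD3 (0.29 ± 0.11), was no longer called without acetate replicate 2, 3 or 4 or 10 mM replicate 1 or 3, with adjusted p from 0.0569 to 0.0907. Of 40 cytosolic ribosomal proteins, 38 were lower at 10 mM, 19 of them by at least 1.5-fold, and 2 were not called. Their log2 fold changes ran from −0.92 to −0.26 with a median of −0.57. RPL12 (−0.92 ± 0.09), RPL3 (−0.91 ± 0.07) and RPL5 (−0.75 ± 0.08) had the smallest p. No ribosomal protein was called for acetate against 1 mM, where 13.7% of all genes were. Many of these genes have processed pseudogenes, so their counts are uncertain, and their summed level ran from 18274 to 24348 CPM with acetate and from 12859 to 14111 CPM at 10 mM.

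**Figure D3:**
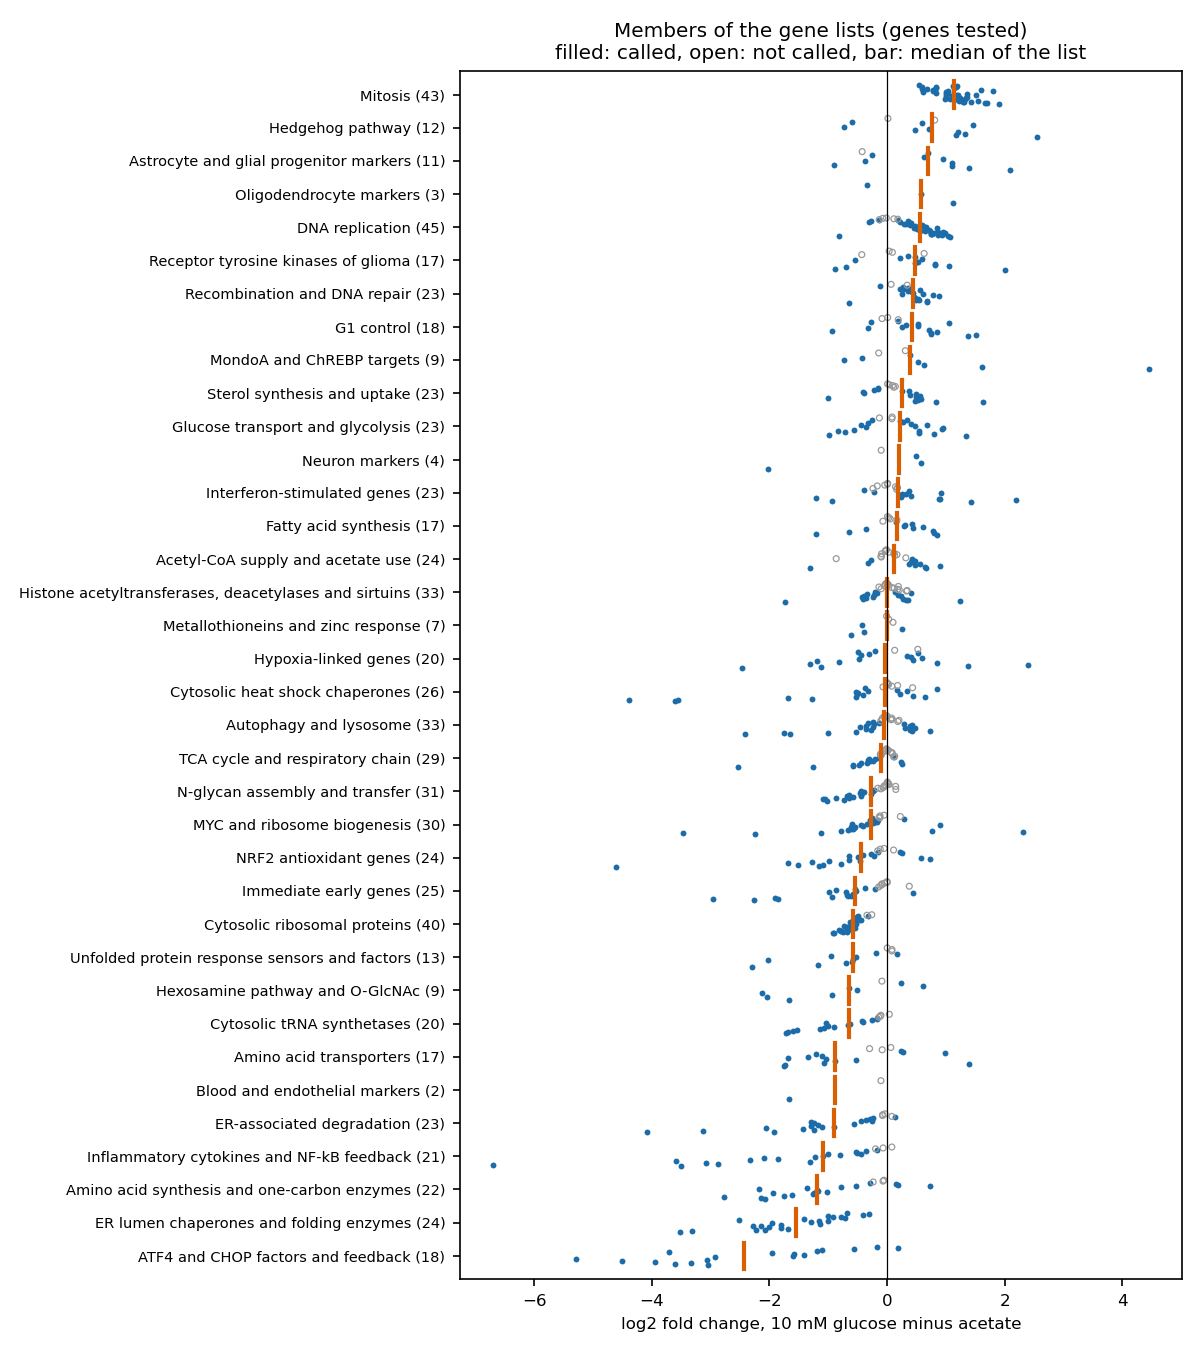
Log2 fold change of 10 mM glucose minus acetate (x axis) for the tested members of each gene list (rows, with the number tested), ordered by the median of the list (orange bar). Filled blue points are called and open points are not. All 43 mitosis points lie to the right of 0 and all 24 ER lumen points to the left.

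Mitosis genes were all higher at 10 mM glucose, and none was called between 1 mM glucose and acetate, where 13.7% of all genes were. Each of the 43 genes for spindle, kinetochore, cytokinesis and mitotic kinases was called higher at 10 mM, where 31.0% of all genes were, from 0.54 to 1.91 with a median of 1.14. The median for acetate against 1 mM was 0.02. KIF20A, a kinesin of the dividing spindle, had 69.7, 76.9, 84.2 and 72.03 CPM at 1 mM, 82.1, 82.4, 77.98 and 88.9 CPM with acetate and 326, 309, 301 and 309 CPM at 10 mM. It was 3.75-fold higher (1.91 ± 0.06, adjusted p = 7.03e-12). The kinase AURKA (1.67 ± 0.06) and the spindle protein DLGAP5 (1.71 ± 0.07) came next by p. MKI67, the proliferation marker Ki-67, had 236, 358, 398 and 425 CPM with acetate and 1312, 1327, 1132 and 1162 CPM at 10 mM (1.80 ± 0.16). Acetate replicate 1 was again the lowest of its group, and without it the fold change was 1.65. In these bulk samples fewer cycling cells and less RNA per cycling cell cannot be told apart.

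The promoters of PLK1, a mitotic kinase (1.37 ± 0.08), and CENPA, the centromeric histone (1.18 ± 0.08), are shown for the CHR letters TTTGAA, the site through which the DREAM and MYB complexes are known to time late cell cycle genes. Capitals mark the letters on either strand. PLK1 lies at chr16:23678639-23678938 and CENPA at chr2:26785806-26786105, both on the plus strand.
PLK1: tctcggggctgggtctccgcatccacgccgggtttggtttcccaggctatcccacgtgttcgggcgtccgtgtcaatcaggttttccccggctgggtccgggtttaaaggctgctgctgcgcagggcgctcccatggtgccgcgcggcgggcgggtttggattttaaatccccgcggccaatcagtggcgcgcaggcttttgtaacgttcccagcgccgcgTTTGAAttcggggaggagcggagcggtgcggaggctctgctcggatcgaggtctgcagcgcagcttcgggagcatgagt
CENPA: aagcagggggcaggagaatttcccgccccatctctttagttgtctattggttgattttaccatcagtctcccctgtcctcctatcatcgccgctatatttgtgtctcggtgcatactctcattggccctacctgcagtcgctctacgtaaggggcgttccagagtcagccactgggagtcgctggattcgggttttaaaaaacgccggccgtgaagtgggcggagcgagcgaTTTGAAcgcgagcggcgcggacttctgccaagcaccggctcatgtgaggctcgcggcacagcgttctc
The letters began 29 bases before the start in PLK1 and 18 bases before it in CENPA. Promoters were found for 37 of the 43 mitosis genes and 26 held the letters (70.3%), against 15.4% of all 27305.

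DNA replication genes were also higher at 10 mM, but here acetate had covered part of the distance for some. Of 45, 36 were higher, 4 were lower and 5 were not called, with a median of 0.56. For acetate against 1 mM, where 13.7% of all genes were called, 17 were higher and 1 was lower, with a median of 0.17. ORC1, the largest origin recognition subunit, had 20.3, 21.4, 21.8 and 21.2 CPM at 1 mM, 22.4, 25.7, 26.8 and 26.6 CPM with acetate and 51.9, 52.9, 54.2 and 54.1 CPM at 10 mM (1.07 ± 0.06, adjusted p = 1.29e-09). GINS1, part of the replicative helicase, gave 0.31 ± 0.06 for acetate against 1 mM and 1.03 ± 0.06 for 10 mM against acetate. CDC6, the factor that loads the helicase at origins, went against the list: it had 206, 208, 211 and 204 CPM with acetate and 114, 116, 119.9 and 122 CPM at 10 mM (−0.81 ± 0.05, adjusted p = 3.36e-09). The other members lower at 10 mM, ORC4 (−0.30 ± 0.07), RFC1 (−0.27 ± 0.08) and ORC2 (−0.14 ± 0.05), differed little, and the ORC2 call was lost without acetate replicate 2 or 4 or 10 mM replicate 2 or 3 (adjusted p from 0.0577 to 0.101). Of 23 recombination and repair genes, 19 were higher, 2 were lower and 2 were not called. BLM, a helicase (0.67 ± 0.06), and RAD54L, a recombinase partner (0.68 ± 0.07), led, and RBBP8 (CtIP), which starts end resection, was lower (−0.65 ± 0.06).

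Among 18 genes of G1 control, 12 were higher at 10 mM, 3 were lower and 3 were not called. The factors E2F2 and E2F8 led: E2F2 had 6.88, 8.54, 9.24 and 8.89 CPM at 1 mM, 11.5, 14.1, 14.8 and 16.7 CPM with acetate and 41.3, 40.5, 41.8 and 39.8 CPM at 10 mM (1.52 ± 0.10), and E2F8 was 1.37 ± 0.07. CDK2, the kinase of S phase entry, was 0.75 ± 0.06. The repressor E2F7 (−0.94 ± 0.10) and the inhibitor CDKN1A (p21, −0.32 ± 0.06) were lower at 10 mM, CDKN1A after a fall with acetate (−0.50 ± 0.06), and CDK4 was −0.27 ± 0.08.

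Hedgehog genes, which pattern neural tissue, were higher at 10 mM in 8 of 12 cases, with 2 lower and 2 not called and a median of 0.76. PTCH1, the receptor and a target of the pathway, had 16.7, 19.7, 14.4 and 15.7 CPM at 1 mM, 16.3, 24.8, 25.7 and 25.3 CPM with acetate and 145, 134, 129.9 and 130.4 CPM at 10 mM (2.55 ± 0.13, adjusted p = 3.36e-10). Acetate replicate 1 lay with the 1 mM libraries and the other 3 above them, and without it the fold change was 2.41. SUFU, the inhibitor of the GLI factors (1.17 ± 0.07), and the co-receptor GAS1 (1.33 ± 0.09) also rose, and the co-receptor CDON fell (−0.73 ± 0.11). Of 17 receptor tyrosine kinases of glioma, 10 were higher, 3 were lower and 4 were not called. PDGFRA, the platelet-derived growth factor receptor of proneural tumours, had 6.15, 6.08, 4.91 and 4.77 CPM at 1 mM, 8.61, 11.3, 10.3 and 11.5 CPM with acetate and 40.9, 44.7, 39.3 and 43.3 CPM at 10 mM. Both steps were called (0.93 ± 0.11 and 2.01 ± 0.09), and the 3 groups did not overlap. AXL (−0.70 ± 0.05), EPHA2 (−0.88 ± 0.06) and MET (−0.55 ± 0.10), receptors of more mesenchymal tumours, were lower at 10 mM. EGFR was not called with all libraries (−0.43 ± 0.22, adjusted p = 0.109) and was called lower without acetate replicate 1 (−0.62, adjusted p = 0.00789) or without replicate 3 at 1 mM (−0.43, adjusted p = 0.0365), and with the length and GC trend removed (−0.54, adjusted p = 0.00217, and 0.00616 with the replicate block).

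Glial and progenitor markers moved in both directions. Of 11 tested astrocyte and progenitor markers, 7 were higher at 10 mM, 3 were lower and 1 was not called. SOX2, a stem cell factor, had 18.8, 17.5, 16.4 and 18.1 CPM with acetate and 75.6, 75.5, 72.3 and 78.3 CPM at 10 mM (2.09 ± 0.06, adjusted p = 2.08e-12), and nestin, NES, was 1.10 ± 0.08. OLIG2, a progenitor factor, was lower (−0.90 ± 0.08), with CD44 (−0.37 ± 0.04) and VIM (−0.25 ± 0.07). The summed level of this list was not higher at 10 mM: it ran from 5998 to 6500 CPM with acetate and from 5975 to 6094 CPM at 10 mM. Most of that sum was VIM, which was lower, so the sum does not describe the markers that rose. Of 3 oligodendrocyte markers, 2 were higher, with the myelin gene CNP at 1.12 ± 0.07, and MAG was lower (−0.34 ± 0.09). Of 4 neuron markers, SNAP25 (0.58 ± 0.06) and MAP2 (0.50 ± 0.12) were higher, the vesicle protein SYT1 (−2.02 ± 0.09) was lower and GAD1 (−0.10 ± 0.09) was not called. CD68, a lysosomal marker of macrophages that other cells also express, was −1.67 ± 0.08, with 68.6, 62.1, 67.2 and 62.2 CPM under acetate and 20.4, 17.6, 21.8 and 21.5 CPM at 10 mM. The summed blood and endothelial markers ran from 62.8 to 69.8 CPM with acetate and from 18.6 to 22.9 CPM at 10 mM, nearly all of it CD68, and those of oligodendrocytes from 340.1 to 359 and from 552 to 563 CPM. The summed neuron markers ran from 177 to 199 CPM with acetate and from 131 to 142 CPM at 10 mM. The part of other cell types in the results was not tested.

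Another 3 lists moved in both directions. Of 20 hypoxia-linked genes, 8 were higher at 10 mM, 10 were lower and 2 were not called. VEGFA, the vascular growth factor, had 292, 278, 288 and 266 CPM with acetate and 50.6, 50.99, 52.4 and 49.1 CPM at 10 mM (−2.47 ± 0.06), while CA9, a carbonic anhydrase, had 1.22, 1.07, 1.02 and 0.870 and 5.15, 6.17, 5.43 and 5.46 CPM (2.40 ± 0.17) and STC1 was 1.37 ± 0.08. Of 23 interferon-stimulated genes, 11 were higher, 4 were lower and 8 were not called, and the 15 called stand beside 62.8% of all genes. IFIT1 (2.20 ± 0.20) and IFIT2 (1.44 ± 0.10), which bind viral RNA, rose from low levels, and the factor IRF1 fell (−0.94 ± 0.07). Of 33 autophagy and lysosome genes, 8 were higher, 14 were lower and 11 were not called, with 22 called beside the same 62.8%. SQSTM1 (p62), a cargo receptor, had 1870.5, 1591, 1766 and 1678 CPM at 1 mM, 1320.2, 1149, 1136 and 1065 CPM with acetate and 351, 330.1, 368 and 333 CPM at 10 mM (−1.76 ± 0.07). The autophagosome genes MAP1LC3B (−1.65 ± 0.06) and WIPI1 (−2.42 ± 0.06) fell with it, and the initiating kinase ULK1 rose (0.48 ± 0.08).

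Some genes that differed between 10 mM and 1 mM glucose lay close to their 10 mM level with acetate. The 95% interval of 10 mM against acetate lay within 0.32 of 0 (log2) for 3083 of all genes tested. Of these, 1092 were called between 10 mM and 1 mM glucose, where 9725 of all 14416 were. A call for acetate against 1 mM was not required, so genes that acetate did not move can be among the 1092. The values of acetate and of 10 mM against 1 mM, which choose the examples, share the 1 mM libraries. The 5 such genes that were most above 1 mM at 10 mM were the adhesion protein CNTN1, creatine kinase CKB, the phosphatase PTPN22, the antibody receptor FCGR2A and the factor NFATC4. CNTN1 had 5.09, 6.32, 4.80 and 4.85 CPM at 1 mM, 7.50, 10.5, 8.59 and 11.6 CPM with acetate and 9.52, 10.3, 9.26 and 10.04 CPM at 10 mM. CKB had 7.29, 7.68, 10.3 and 8.40, 17.4, 12.6, 14.6 and 15.2 and 14.2, 14.1, 15.8 and 13.6 CPM in the same order. In both the acetate and 10 mM libraries overlapped. The 5 that were most below 1 mM were SERTAD1, the spermine oxidase SMOX, the drug exporter ABCB1, the ubiquitin ligase RNF19B and LRIF1. SERTAD1, a cyclin-dependent kinase binding protein, had 30.3, 22.3, 30.1 and 26.5 CPM at 1 mM, 15.97, 12.9, 14.04 and 11.04 CPM with acetate and 13.4, 13.5, 14.98 and 13.2 CPM at 10 mM. Of these 10 genes NFATC4 (0.19 ± 0.06) and SMOX (−0.15 ± 0.06) were still called between acetate and 10 mM, and the SMOX call was lost when any 1 of 8 libraries was left out (replicates 1 and 4 at 1 mM, acetate replicates 1, 2 and 3, and 10 mM replicates 1, 2 and 4), with adjusted p from 0.051 to 0.117. With the length and GC trend removed the NFATC4 call was lost (0.05, adjusted p = 0.487, and 0.533 with the replicate block). PTPN22 (0.12 ± 0.09) was called higher at 10 mM with library totals (0.22, adjusted p = 0.0432) and with the length and GC trend removed (0.20, adjusted p = 0.0408, and 0.00705 with the block). RNF19B (−0.12 ± 0.05) was called lower without acetate replicate 3 (adjusted p = 0.0345) and with that trend removed (adjusted p = 0.0399, and 0.0394 with the block). LRIF1 (−0.15 ± 0.07) was called lower without replicate 2 or 3 at 1 mM (adjusted p = 0.0457 and 0.019) and in the fit of the 8 libraries alone (adjusted p = 0.0215).

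**Figure D4:**
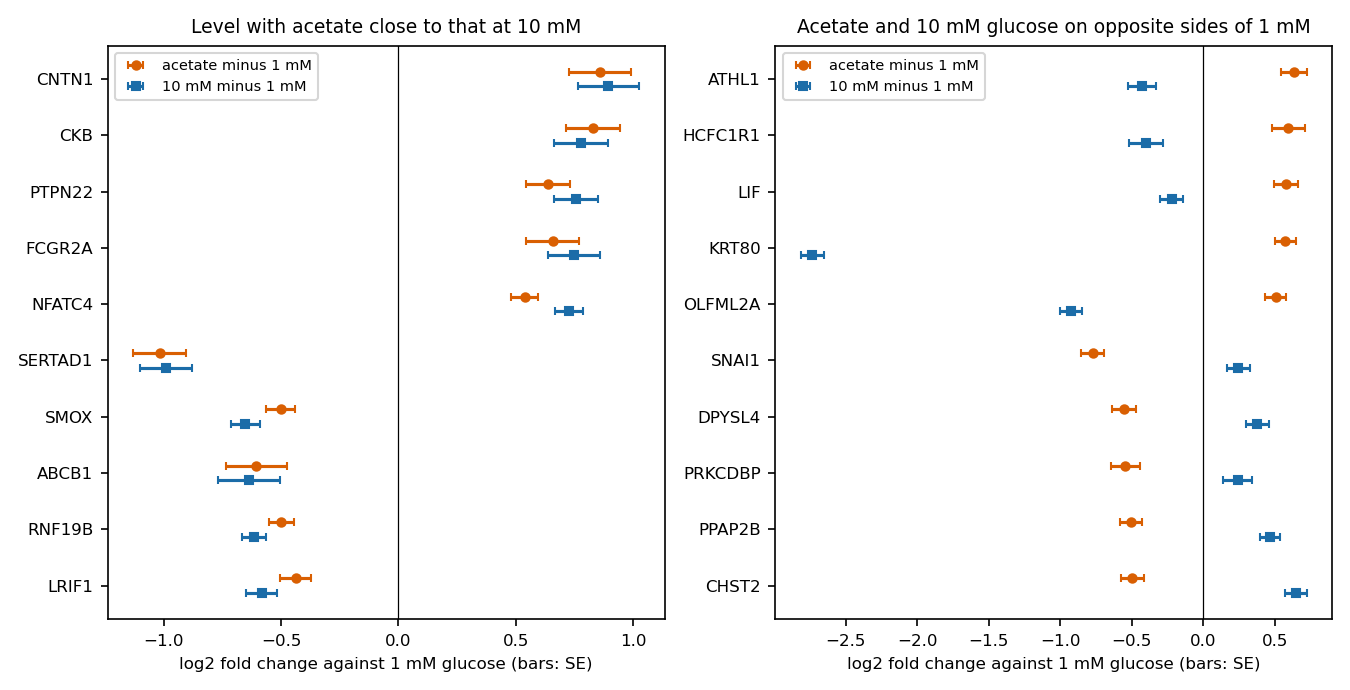
Log2 fold changes against 1 mM glucose alone, with SE, for acetate (orange circles) and 10 mM glucose (blue squares), which share the 1 mM libraries. Left, the 10 genes with a narrow interval of 10 mM against acetate that differed most from 1 mM: circles and squares lie close together. Right, the 10 genes that acetate and 10 mM moved to opposite sides of 1 mM: LIF, for example, lies at 0.58 and −0.22.

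For other genes acetate and 10 mM glucose lay on opposite sides of 1 mM. With both steps called, the genes acetate raised most were ATHL1, HCFC1R1, LIF, the keratin KRT80 and OLFML2A. KRT80 had 136, 112, 121 and 115 CPM at 1 mM, 177, 184, 189 and 170.0 CPM with acetate and 18.2 ± 1.87 CPM at 10 mM (SD, n = 4), which left 9.90-fold between the last pair (−3.31 ± 0.08). The genes it lowered most were SNAI1, DPYSL4, PRKCDBP, the lipid phosphatase PPAP2B and the sulfotransferase CHST2. SNAI1 (Snail), a factor of mesenchymal change, had 50.6, 42.1, 48.7 and 47.8 CPM at 1 mM, 26.3, 31.4, 28.6 and 24.3 CPM with acetate and 57.4, 54.4, 59.8 and 52.8 CPM at 10 mM (1.02 ± 0.08, adjusted p = 5.37e-08). Its acetate libraries lay below all others. The fold changes of 10 mM against acetate were −1.06 ± 0.09 for ATHL1, −0.99 ± 0.12 for HCFC1R1, −1.43 ± 0.08 for OLFML2A, 0.93 ± 0.08 for DPYSL4, 0.79 ± 0.10 for PRKCDBP, 0.98 ± 0.07 for PPAP2B and 1.14 ± 0.08 for CHST2.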

How the data were processed

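Per the labels, Trizol was used for the RNA and Illumina protocols for the libraries. The deposited tables hold whole-number read counts per transcript; the genome build was hg19, per the submitters' processing notes, while aligner, counting program and strand setting are not given in the sources here. For each of 22257 genes the transcript marked best in the deposited tables (20895 genes) or otherwise that with the highest total count (1362) was kept. Genes with near-identical copies (HSPA1A, HSPA1B, HSPA6, SPRR2D, metallothioneins, ribosomal proteins) are uncertain.

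Libraries held 24412954 to 27183718 counts. All 12 libraries entered 1 fit in edgeR 4.0.16 (R 4.3.3; filterByExpr, TMM, a mean per medium, quasi-likelihood test), with Benjamini-Hochberg adjustment over 14416 genes and a threshold of 0.05. The 36 gene lists and the comparison were chosen with earlier results of these data known. Genes named were the 12 highest and 12 lowest called with at least 5 CPM and no overlap, a fixed set of 25, in each list the 3 called members with the smallest p and those against its main direction, and 10 genes each that acetate brought level with or moved away from 10 mM. CALR, CANX, CARS, CENPA, CHORDC1, CRELD2, EGR2, ERO1LB, HSP90AB1, HSP90B1, IARS, JUN, MARS, MCL1, NARS, OGT, PDHX, PLK1 and TARS fall outside that rule and were picked with their values known. The fit was tested on simulated data. Alternatives were DESeq2 1.42.0, voom in limma 3.58.1, other scalings, filters and transcripts, a fold minimum, a length and GC correction, a replicate block and leaving out libraries. Promoter letters came from RefSeq (GRCh38.p14), which matched 11292 of the 14416 genes (78.3%), so shares of all tested genes are not given.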

Additional observations from a re-analysis of the deposited data

Results flagged for a closer look

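In 27 of 422 groups of 4 libraries (the acetate and 10 mM levels of the 211 genes named), 1 library lay so far from the others that the share of the group's range taken by its gap passed Dixon's critical value at 95%. Chance gives about 1 group in 20, and these were 6.40%. Values below are CPM of that library against the lowest and highest of the other 3.

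Acetate replicate 1, the library that stood apart by transcript length, was the source of 7. It was high or low for ACLY 184 against 217 to 219, CDON 28.2 against 35.6 to 36.6, CENPA 23.9 against 20.3 to 20.5, MET 221 against 276 to 284, MXD4 10.6 against 8.24 to 8.44, PTCH1 16.3 against 24.8 to 25.7 and RPL12 165 against 127 to 132. The other acetate libraries gave MYCN 5.23 against 3.79 to 4.01 (replicate 2), and IFIT2 1.59 against 1.91 to 1.97 and IL8 225 against 262 to 268 (replicate 4).

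In 10 mM replicate 1 the values were GDF15 7.93 against 9.62 to 9.66, KLHDC7B 0.155 against 0.181 to 0.182, PDIA4 582 against 547 to 549.5 and RNF19B 25.1 against 27.4 to 27.6. In 10 mM replicate 2 the values were NQO1 689 against 709.7 to 713. In 10 mM replicate 3 the values were ATF6 79.9 against 85.04 to 85.3, BEX2 3.43 against 2.26 to 2.43, CRELD2 70.4 against 65.04 to 65.8, PFKP 276 against 253 to 257, PPP1R15A 64.1 against 59.9 to 60.5, SERTAD1 14.98 against 13.2 to 13.5, SLC2A1 210.1 against 194 to 196, SLC3A2 329 against 301 to 306 and THBS1 1075 against 985 to 998. In 10 mM replicate 4 the values were CENPA 51.7 against 46.7 to 47.3, GARS 329 against 322 to 323 and OSTC 76.6 against 67.5 to 68.6. Leaving out the library in question changed no call of the gene it is given for.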

How the results depend on the processing

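The count of 9049 called genes was 9046 with DESeq2 size factors, 9149 with library totals, 8995 with DESeq2's Wald test, 9049 with voom, 9111 without the filter, 7490 with a mean of at least 5 CPM, 9414 from the 8 libraries alone, 9052 with the highest-total transcript, and 9991 with the trend in transcript length and GC removed. Leaving out 1 library at a time gave 8421 to 9637 genes, 4164 to 4785 higher and 4254 to 4852 lower. A fold minimum of 1.5 (glmTreat), which tests against a larger null by construction, left 2104 genes, 1004 higher and 1100 lower. It left 12 genes of ER-associated degradation, 3 of the unfolded protein response, 9 tRNA synthetases, 5 N-glycan, 4 hexosamine, 2 MondoA, 6 glycolysis, 2 acetyl-CoA, 4 fatty acid, 3 sterol and 2 TCA cycle genes. It left 8 NRF2, 5 heat shock, 0 metallothionein, 6 immediate early, 7 MYC and ribosome biogenesis, 6 ribosomal protein, 14 DNA replication, 1 recombination, 6 G1, 8 hypoxia, 6 interferon, 5 Hedgehog, 6 receptor kinase, 4 autophagy and 2 histone acetylation genes, and 6 astrocyte, 1 neuron and 1 oligodendrocyte markers. All 24 ER lumen and all 43 mitosis genes kept their call in each leave-one-out fit. With library totals the median of all genes moved by 0.10, and 4 list medians turned sign: autophagy from −0.0534 to 0.0496, heat shock from −0.0367 to 0.0668, hypoxia from −0.0337 to 0.0697 and metallothioneins from −0.0072 to 0.0973. With the length and GC trend removed the signs of MSMO1 (0.0019) and PRIM1 (0.20) reversed, also with the block (0.0021 and 0.20); the cause was not tested.

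Replicate numbers were shared between media. Same-numbered acetate and 10 mM libraries deviated with correlations of −0.11 to 0.02 only. So few values cannot decide whether the numbers pair them, and the main fit took the libraries as unpaired. With the replicate block 8899 genes were called, and 9824 with the block and the length and GC correction. Depth limits genes of a few CPM, and a single cell line limits all values to LN229.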

Other observations

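Of the 5367 genes not called between 10 mM glucose and acetate, 2608 had a 95% interval within 0.32 of 0 on the log2 scale, and for the others the interval allows a larger difference. The 10 most abundant genes took 5.74% to 5.99% of the counts with acetate and 3.52% to 3.76% at 10 mM.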
